A study of Homo sapiens with 6 samples.

Results

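Wnt ligands, their Frizzled receptors, the secreted antagonists and a set of co-receptors and intracellular partners were followed in PANC-1, an established cell line from a human pancreatic carcinoma. The members were the rows of the deposited count table whose gene symbol names a numbered WNT, FZD, DKK or SFRP gene, with LRP5, LRP6, AXIN1, AXIN2, RNF43, ZNRF3, TCF7, TCF7L1, TCF7L2, LEF1, LGR4 and NKD1. This gave 45 genes of 32078, namely 17 ligands, 9 Frizzled genes, 3 DKK and 4 SFRP genes, and 12 others. The rule uses gene names alone, but it was written with earlier results of these data known.

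The compared groups were 3 libraries labelled as PANC-1 treated with extracellular vesicles (EVs) from cancer-associated fibroblasts (CAFs) and 3 labelled as untreated PANC-1 controls. CAFs are the activated fibroblasts of tumour stroma, and EVs are membrane-bound particles that cells shed and take up. All 6 libraries were made from poly(A) RNA of the same line, and the protocol text mentions vesicle treatment for every library, so the groups rest on titles and treatment labels. The sources used here give neither vesicle dose nor exposure time, nor whether replicates were separate cultures.

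Wnt proteins are secreted lipid-modified ligands that bind a Frizzled receptor together with the co-receptor LRP5 or LRP6. Binding disables the cytoplasmic complex of AXIN, APC, casein kinase 1 and GSK3 that marks beta-catenin for destruction, and beta-catenin then acts with TCF/LEF factors at target genes. The ubiquitin ligases RNF43 and ZNRF3 remove Frizzled receptors from the cell surface, R-spondins acting through LGR receptors restrain those ligases, and AXIN2, NKD1, RNF43 and ZNRF3 are themselves known targets of the pathway. Loss of RNF43 is a recurrent event in pancreatic tumours and is known to make cells depend on secreted Wnt.

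Libraries held 21669757 to 27134375 counts in the EV group and 23646239 to 27535620 counts in the control group, and no pair of replicate libraries agreed within sampling noise. Among 6 listed carcinoma markers, the keratin genes KRT8, KRT18 and KRT19 were abundant, whereas EPCAM and CDH1 had 0 counts in all libraries and KRT7 had 1, 2 and 3 counts in EV libraries and 5, 10 and 7 in control libraries. KRT19 was lower in EV libraries (log2 fold change -0.48, edgeR adjusted p = 5.78e-06), and KRT8 and KRT18 were not called. The summed level of 10 fibroblast markers with a row was 199 to 219 CPM (counts per library size, after TMM scaling) in EV libraries and 120 to 146 CPM in control libraries. COL1A2 made up most of this sum, at a mean of 186 CPM in EV libraries and 114 CPM in control libraries. It was the 1 higher gene of the 3 testable ones. ACTA2 was lower, at a mean of 2.79 CPM in EV libraries and 5.23 CPM in control libraries. COL3A1 was not called, at 19.0 CPM in EV libraries and 17.7 CPM in control libraries (adjusted p = 0.398). COL1A1, PDGFRA and PDGFRB were below the filter. COL1A1 had 2, 3 and 3 counts in EV libraries and 2, 1 and 2 in control libraries. PDGFRA had 0 in each EV library and 3, 0 and 3 in control libraries, and PDGFRB had 0, 0 and 2 against 3, 5 and 13. DCN, LUM, POSTN and THY1 were at 0 counts in all libraries. The part of the difference in the sum in the results was not tested.

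Of the 45 members, 27 passed the filter on low counts and were tested, and 11 of these (40.7%) differed at an adjusted p under 0.05. Over all 14670 tested genes the share was 40.9%, so the members' share lies at the background. Higher in EV libraries were 8 members (29.6%, against 20.2% of all tested genes) and lower were 3 (11.1%, against 20.7%). The median log2 fold change was 0.13 over the 27 tested members and -0.01 over all tested genes. Levels in the EV and control libraries did not overlap for 13 of the 27, against 50.6% of all tested genes. Adjusted p-values come from edgeR's quasi-likelihood test with Benjamini-Hochberg adjustment over all tested genes. In bulk RNA, fewer cells of a type and less RNA per cell cannot be told apart.

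Among receptors, co-receptors and the genes of their turnover, 7 of 12 tested genes were higher (58.3%, against 20.2% of all tested genes) and 0 lower (against 20.7%): FZD1, FZD2, FZD3, FZD4, LRP5, LGR4 and ZNRF3. A difference between roles was not tested. Of the 8 tested ligands, WNT3 was lower (12.5%, against 20.7% of all tested genes) and none was higher (against 20.2%). The remaining called genes were SFRP1, which was higher, and AXIN1 and TCF7L1, which were lower.

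**Figure D1:**
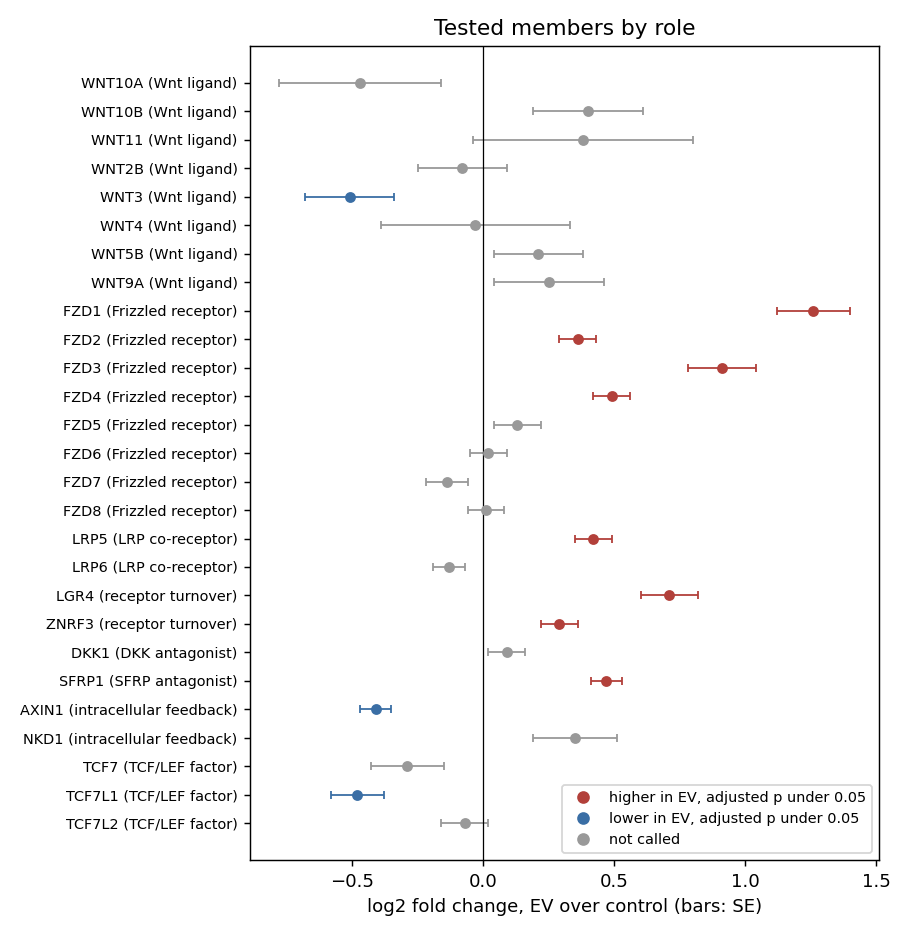
Log2 fold change (x axis, EV over control, with SE bars) of the 27 tested members, grouped by role down the page. Red points are the 8 members higher in EV libraries, blue points the 3 lower ones and grey points the 16 not called. FZD1, at 1.26, lies farthest from 0.

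Among the Frizzled receptors, FZD1 moved most. It was at 7.32, 5.91 and 7.59 CPM in EV libraries, against 2.96, 2.82 and 2.93 CPM in control libraries. Every EV library lay well above every control library. The fitted change was 2.40-fold (log2 fold change 1.26 ± 0.14, SE; adjusted p = 1.56e-06), and FZD1 was the only member called with a change of at least 2-fold. FZD2, a close relative of FZD1, was at 43.7, 44.7 and 44.3 CPM in EV libraries, against 37.7, 33.2 and 32.6 CPM in control libraries. Its EV values were tightly grouped above all control values (log2 fold change 0.36 ± 0.07, adjusted p = 0.000555). FZD7, the other member of that subfamily, was at 24.8, 23.2 and 26.8 CPM in EV libraries, against 27.0, 26.4 and 28.8 CPM in control libraries. These values overlapped, and FZD7 was not called (-0.14 ± 0.08, adjusted p = 0.18).

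The subfamily of FZD3 and FZD6, known for roles in planar cell polarity and axon growth, was also uneven. FZD3 was at 8.76, 8.48 and 7.51 CPM in EV libraries, against 4.33, 4.13 and 4.69 CPM in control libraries. The groups did not overlap, and the change was 1.88-fold (0.91 ± 0.13, adjusted p = 1.33e-05). FZD6 was at 27.0, 29.2 and 27.3 CPM in EV libraries, against 26.7, 27.5 and 28.0 CPM in control libraries, with overlapping groups (0.02 ± 0.07, adjusted p = 0.844). FZD4, which also serves as the receptor for the non-Wnt ligand norrin, was at 60.3, 58.2 and 58.6 CPM in EV libraries, against 45.6, 38.7 and 42.1 CPM in control libraries. All EV values lay above all control values (0.49 ± 0.07, adjusted p = 1.76e-05). In the GENCODE v29 annotation 1399 bp (18.9%) of the FZD4 exons overlap exons of PRSS23 on the opposite strand. PRSS23 was at 69.2, 72.8 and 69.7 CPM in EV libraries and 57.7, 59.6 and 60.9 CPM in control libraries (0.25 ± 0.06, adjusted p = 0.00285). Per the labels' protocols the kit keeps strand, but the sources used here do not say whether the counting kept the strands apart. The part of PRSS23 reads in the FZD4 counts was not tested.

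FZD5 and FZD8, which form a further subfamily, were not called. FZD5 was at 17.5, 18.4 and 19.9 CPM in EV libraries, against 18.8, 15.7 and 16.4 CPM in control libraries (0.13 ± 0.09, adjusted p = 0.265). FZD8 was at 32.2, 30.8 and 33.6 CPM in EV libraries, against 32.0, 32.5 and 31.6 CPM in control libraries (0.01 ± 0.07, adjusted p = 0.943), and the direction of this difference turned under 4 of 14 alternative settings. FZD9 had 0 counts in all 6 libraries, which allows up to 3 counts, or 0.11 to 0.138 CPM depending on the library.

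**Figure D2:**
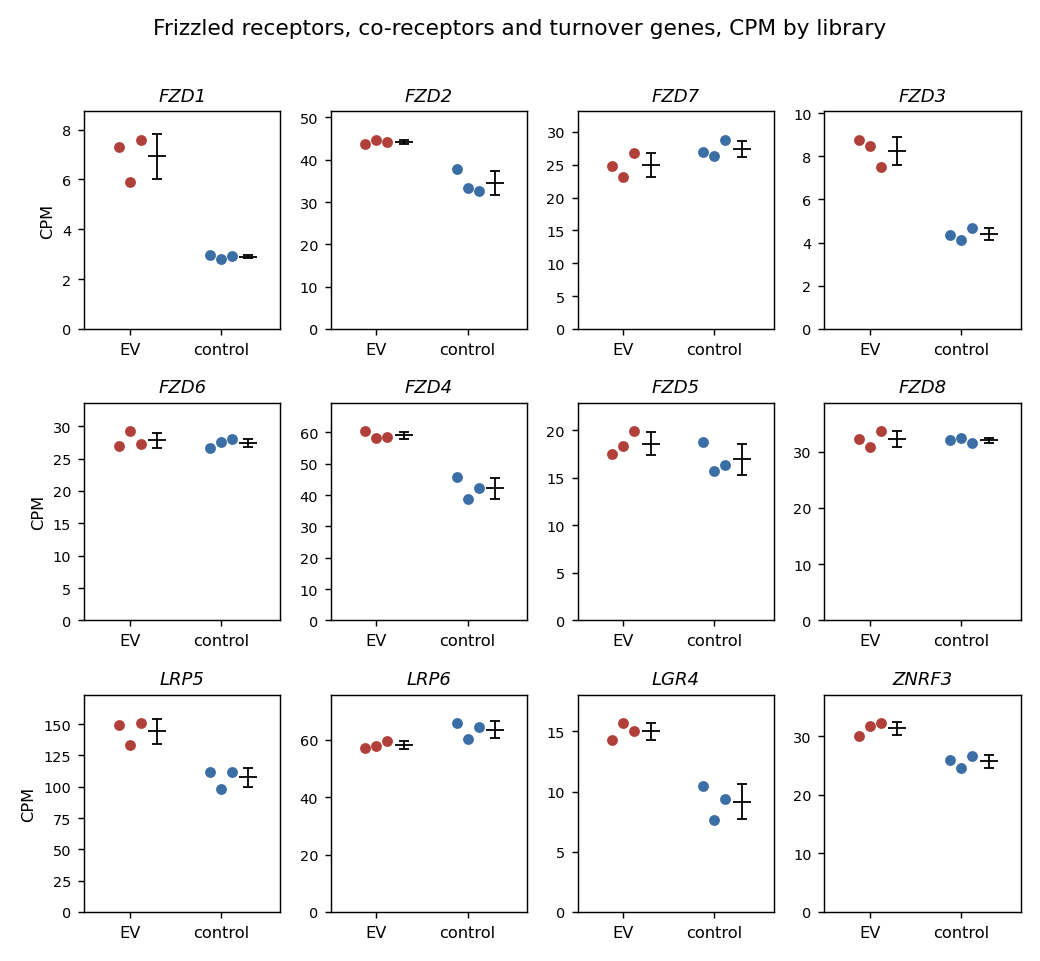
Level in CPM (y axis, from 0) of 8 Frizzled genes, LRP5, LRP6, LGR4 and ZNRF3 in each EV library (red, left) and control library (blue, right), with mean and SD as black bars. The groups are separated for FZD1, FZD2, FZD3, FZD4, LRP5, LRP6, LGR4 and ZNRF3, and LRP6 lies the other way.

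Summed over the Frizzled genes, the level was 222, 219 and 226 CPM in EV libraries, against 195, 181 and 187 CPM in control libraries, a ratio of means of 1.18. Levels were also compared between genes per kb of annotated exon, which overstates length where short transcript forms dominate. FZD2 was the most abundant Frizzled mRNA on this scale, at 38.4% ± 0.721 of the summed Frizzled level in EV libraries and 34.6% ± 1.66 in control libraries (SD, n = 3 each). FZD4 made up 14.7% ± 0.404 in EV libraries and 12.1% ± 0.569 in control libraries, while FZD7 made up 11.8% ± 0.702 in EV libraries and 15.1% ± 0.907 in control libraries. FZD1 and FZD3, the genes with the highest fold changes, remained the scarcest of the 8 detected: FZD1 was at 1.82% ± 0.22 in EV libraries and 0.885% ± 0.02 in control libraries, and FZD3 at 1.10% ± 0.101 in EV libraries and 0.676% ± 0.0488 in control libraries.

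**Figure D3:**
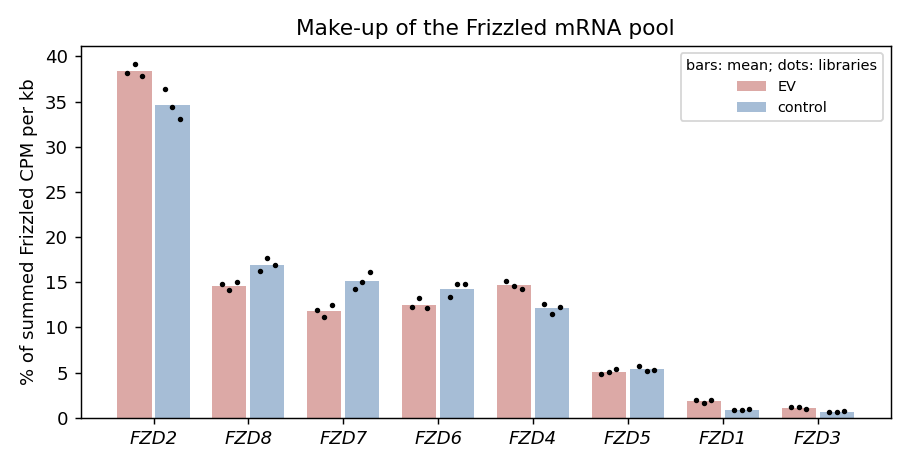
Share of the summed Frizzled level (y axis, percent of CPM per kb of exon) held by each of 8 Frizzled genes in EV libraries (red, left) and control libraries (blue, right). Bars are means and dots the 3 libraries; FZD2 holds the highest share in both groups, at 38.4% in EV libraries and 34.6% in control libraries.

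The LRP co-receptors differed from each other. LRP5 was at 149, 133 and 151 CPM in EV libraries, against 112, 98.5 and 112 CPM in control libraries. The groups did not overlap (log2 fold change 0.42 ± 0.07, adjusted p = 5.63e-05). LRP6 was at 57.1, 57.6 and 59.6 CPM in EV libraries, against 65.8, 60.1 and 64.4 CPM in control libraries. Its groups did not overlap either, with EV below control, but it was not called (-0.13 ± 0.06, adjusted p = 0.115).

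Ratios of related genes within a library do not depend on library scaling, and 6 pairs, chosen after their values were seen, are described. The LRP5 to LRP6 count ratio was 2.61, 2.31 and 2.53 in EV libraries, against 1.71, 1.64 and 1.74 in control libraries. The FZD1 to FZD7 ratio was 0.295, 0.255 and 0.284 in EV libraries, against 0.109, 0.107 and 0.102 in control libraries. The FZD3 to FZD6 ratio was 0.325, 0.290 and 0.275 in EV libraries, against 0.162, 0.150 and 0.168 in control libraries. These 3 ratios, and those of FZD2 to FZD7 and TCF7L1 to TCF7L2, did not overlap between groups, while the FZD5 to FZD8 ratio did. Because most pairs set a called gene against a relative that was not called, the ratios are a description with no test.

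The genes of receptor turnover that could be tested were both higher, where 20.2% of all tested genes were higher. LGR4, an R-spondin receptor, was at 14.3, 15.7 and 15.0 CPM in EV libraries, against 10.5, 7.61 and 9.38 CPM in control libraries, with no overlap and a change of 1.64-fold (0.71 ± 0.11, adjusted p = 5.72e-05). ZNRF3, the ligase that removes Frizzled from the surface, was at 30.1, 31.7 and 32.3 CPM in EV libraries, against 25.9, 24.6 and 26.7 CPM in control libraries. The groups did not overlap, and the change was 1.22-fold (0.29 ± 0.07, adjusted p = 0.00438). Its relative RNF43 had 3, 0 and 0 counts in EV libraries and 0 in each control library, which is at the limit that a count of 0 allows.

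Wnt ligand mRNAs were scarce. The summed level of all 17 was 18.2, 16.3 and 17.1 CPM in EV libraries, against 16.3, 18.9 and 16.6 CPM in control libraries, with overlapping groups and a ratio of means of 0.997. WNT3, a ligand of the beta-catenin branch, was at 3.22, 2.70 and 2.33 CPM in EV libraries, against 3.94, 4.31 and 3.56 CPM in control libraries. The groups did not overlap (log2 fold change -0.51 ± 0.17, adjusted p = 0.0186). With 1 library fewer the fold change stayed between -0.40 and -0.64. It was not called in 3 of those refits: leaving out EV replicate 2 gave -0.50 (adjusted p = 0.0524), leaving out EV replicate 3 gave -0.40 (adjusted p = 0.0982), and leaving out control replicate 2 gave -0.44 (adjusted p = 0.0768).

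WNT10B, another ligand of that branch, was at 2.63, 2.80 and 2.61 CPM in EV libraries, against 2.31, 1.39 and 2.42 CPM in control libraries. All EV values lay above all control values, yet it was not called (0.40 ± 0.21, adjusted p = 0.134), and without control replicate 2, the lowest library, it was at 0.17 (adjusted p = 0.528). WNT2B was at 3.88, 2.75 and 3.82 CPM in EV libraries and 3.34, 4.13 and 3.59 CPM in control libraries (-0.08 ± 0.17, adjusted p = 0.744). On the opposite strand ST7L overlaps 21.2% of its exon length. ST7L was lower, at 10.7, 10.2 and 10.3 CPM in EV libraries and 13.6, 14.2 and 12.8 CPM in control libraries (-0.38 ± 0.10, adjusted p = 0.00388). The part of ST7L reads in the WNT2B counts was not tested. WNT5B, best known for beta-catenin-independent signalling, was at 3.44, 2.66 and 3.25 CPM in EV libraries and 2.48, 3.03 and 2.57 CPM in control libraries (0.21 ± 0.17, adjusted p = 0.338). WNT2B and WNT5B overlapped between groups, as did WNT9A, at 2.14, 2.48 and 2.89 CPM in EV libraries and 1.93, 2.67 and 1.69 CPM in control libraries (0.25 ± 0.21, adjusted p = 0.351).

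The 3 other tested ligands lay near or below 1 CPM and overlapped between groups. WNT10A was at 1.04, 0.825 and 0.603 CPM in EV libraries and 1.16, 1.5 and 0.770 CPM in control libraries (-0.47 ± 0.31, adjusted p = 0.241). WNT11 was at 0.444, 0.825 and 0.321 CPM in EV libraries and 0.300, 0.366 and 0.513 CPM in control libraries. WNT4 was at 0.703, 0.550 and 0.603 CPM in EV libraries and 0.300, 0.768 and 0.806 CPM in control libraries. None of the 3 was called.

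Ligands below the filter were not tested. WNT3A had 8, 4 and 6 counts in EV libraries and 4, 7 and 11 in control libraries, WNT8B had 3, 9 and 5 counts in EV libraries and 6, 7 and 2 in control libraries, and WNT7B had 1, 1 and 3 counts in EV libraries and 1, 2 and 3 in control libraries. WNT5A, a ligand of the beta-catenin-independent branch, had 7, 2 and 2 counts in EV libraries and 2 in each control library. WNT6 and WNT1 had at most 1 count in any library, and WNT2, WNT7A and WNT16 had 0 in all of them.

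The secreted antagonists were represented by 1 abundant gene per family. DKK1, which blocks LRP5 and LRP6, was at 54.5, 60.9 and 53.1 CPM in EV libraries, against 51.6, 49.5 and 57.3 CPM in control libraries. The groups overlapped and DKK1 was not called (0.09 ± 0.07, adjusted p = 0.354). SFRP1, a decoy that binds Wnt proteins through a Frizzled-like domain, was at 76.5, 72.3 and 74.3 CPM in EV libraries, against 53.9, 51.6 and 55.5 CPM in control libraries. The groups lay far apart relative to their spread, with a 1.39-fold change (0.47 ± 0.06, adjusted p = 6.76e-06). DKK3 had 9, 3 and 11 counts in EV libraries and 8, 6 and 11 in control libraries, DKK4 had 2 counts in 1 control library, and SFRP4 had at most 2 counts in any library. SFRP2 and SFRP5 had 0 counts in all 6.

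**Figure D4:**
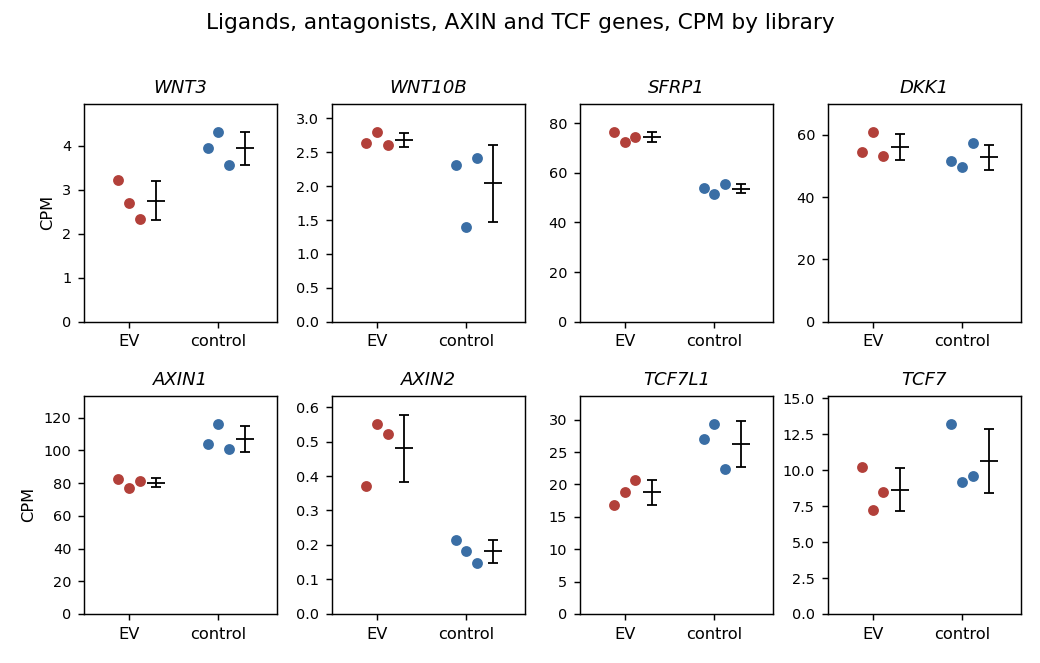
Level in CPM (y axis, from 0) of WNT3, WNT10B, SFRP1, DKK1, AXIN1, AXIN2, TCF7L1 and TCF7 in each EV library (red, left) and control library (blue, right), with mean and SD as black bars. SFRP1, AXIN2 and WNT10B are higher in all EV libraries than in any control library, and WNT3, AXIN1 and TCF7L1 lower.

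Of the AXIN scaffolds, AXIN1 was lower and AXIN2 was too rare for the main test. AXIN1, the scaffold of the destruction complex, was at 82.5, 77.1 and 81.2 CPM in EV libraries, against 104, 116 and 101 CPM in control libraries. The groups did not overlap (-0.41 ± 0.06, adjusted p = 4.88e-05). AXIN2, the feedback scaffold that beta-catenin signalling induces, was rare, with 10, 12 and 13 counts in EV libraries and 5, 5 and 4 in control libraries. All EV values were above all control values, at 0.370, 0.550 and 0.522 CPM in EV libraries and 0.214, 0.183 and 0.147 CPM in control libraries. In GENCODE v29, AC004805.1 overlaps 25.2% of the AXIN2 exon length on the same strand, and it has no row in the count table. AXIN2 did not pass the filter on low counts and so has no main test. Without that filter it was at a log2 fold change of 1.40 ± 0.53 (adjusted p = 0.0392), and with the filter applied anew after leaving out 1 library at a time the adjusted p ranged from 0.0213 to 0.0696. The authors' deposited table, whose fold changes run control over EV, gives AXIN2 -1.40 with a q-value of 0.0152. The authors' q-value was under 0.05 for 12 members, among them all 11 called here. Of these, only AXIN2 and FZD1 (-1.28) were also marked as changed by the authors. FZD3, at -0.93 with a q-value of 1.43e-11 on the same scale, was not marked. The mark therefore does not follow the q-value alone.

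NKD1, a feedback inhibitor that binds Dishevelled, was at 3.70, 4.35 and 4.38 CPM in EV libraries, against 3.21, 2.67 and 3.85 CPM in control libraries. The groups overlapped and it was not called (0.35 ± 0.16, adjusted p = 0.0966). Leaving out 1 library at a time gave 0.22 (adjusted p = 0.343, without control replicate 2) to 0.50 (adjusted p = 0.0363, without control replicate 3), and no other of these 6 refits passed.

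TCF/LEF factors bind DNA and recruit beta-catenin. TCF7L1, a family member that acts mainly as a repressor, was at 16.8, 18.9 and 20.7 CPM in EV libraries, against 27.0, 29.3 and 22.4 CPM in control libraries. The groups did not overlap (-0.48 ± 0.10, adjusted p = 0.000823). TCF7 was at 10.2, 7.24 and 8.52 CPM in EV libraries, against 13.2, 9.18 and 9.60 CPM in control libraries, overlapped and was not called (-0.29 ± 0.14, adjusted p = 0.114). Its value depended on single libraries: leaving out control replicate 1 gave -0.11 (adjusted p = 0.552), and leaving out EV replicate 2 gave -0.18 (adjusted p = 0.392). It passed on leaving out EV replicate 1 (-0.42, adjusted p = 0.0461) or control replicate 2 (-0.38, adjusted p = 0.0491). On the opposite strand SKP1, which was higher (0.23 ± 0.06, adjusted p = 0.00455), overlaps 2.09% of the TCF7 exon length. The part of SKP1 reads in the TCF7 counts was not tested. TCF7L2 was at 14.7, 17.1 and 17.3 CPM in EV libraries and 18.4, 16.1 and 17.1 CPM in control libraries (-0.07 ± 0.09, adjusted p = 0.577). LEF1 had 5, 6 and 5 counts in EV libraries and 5, 11 and 10 in control libraries, below the filter.

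Per kb of annotated exon, DKK1 was the most abundant member in both groups, at a mean of 25.5 CPM per kb in EV libraries and 23.9 CPM per kb in control libraries. LRP5 followed, at 23.4 CPM per kb in EV libraries and 17.4 CPM per kb in control libraries. In EV libraries LRP5 overlapped with DKK1 (24.2, 21.6 and 24.4 CPM per kb for LRP5, and 24.7, 27.6 and 24.1 CPM per kb for DKK1), whereas in control libraries all LRP5 values (18.2, 16.0 and 18.1 CPM per kb) lay below those of DKK1 (23.4, 22.4 and 26.0 CPM per kb). FZD2 came next, at 21.0 CPM per kb in EV libraries and 16.4 CPM per kb in control libraries. SFRP1 and AXIN1 exchanged places: SFRP1 was at 16.1, 15.2 and 15.6 CPM per kb and AXIN1 at 11.0, 10.3 and 10.8 CPM per kb in EV libraries, while in control libraries SFRP1 was at 11.3, 10.8 and 11.6 CPM per kb and AXIN1 at 13.9, 15.4 and 13.5 CPM per kb. The most abundant ligands per kb in the EV group mean were WNT10B, WNT5B, WNT3 and WNT9A, at 1.02, 0.724, 0.635 and 0.631 CPM per kb. In control libraries they were at 0.776, 0.626, 0.908 and 0.527 CPM per kb.

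Promoter sequences were taken from RefSeq (GRCh38.p14). An entry was used here for 31 of the 45 members and for 7 of the 11 called ones. The promoters of FZD3, FZD6, SFRP1 and DKK4, which share a chromosome, were left out of the search. Their absence here therefore does not show that RefSeq lacks them. The called members without a searched promoter were FZD2, FZD3, SFRP1 and ZNRF3, all higher. The 250 bases before the annotated start were searched on both strands for the TCF/LEF core CTTTGA, the GC box GGGCGG, the E-box CACGTG and the ATF4 composite element TGATGNAA. Over 34788 distinct promoter windows of that length, 11.2%, 42.6%, 6.31% and 3.16% held these letters. Among members with a searched promoter, the TCF/LEF core was found in 0 of the 4 higher and 0 of the 3 lower ones. It was found in 1 of the 10 tested members that were not called, DKK1, where it occurs at 2 places. The GC box was found in 3 of 4, 3 of 3 and 10 of 10 of these genes, counting any of their listed starts, and the E-box and the ATF4 composite element in none. A gene with several starts has more chances of a match than a single window. TCF7, TCF7L2, WNT2B and WNT5B each also had a start without a GC box. A match describes letters and does not show binding. The windows of FZD1 (the member with the highest fold change), LGR4 (higher, with no match), AXIN1 (lower, with 8 GC boxes) and DKK1 (not called, with both TCF/LEF cores) are shown 5′ to 3′ on the strand of the gene, with the matches in capitals. FZD1 is at chr7:91264183-91264432 (plus strand), LGR4 at chr11:27472791-27473040 (minus strand), AXIN1 at chr16:352724-352973 (minus strand) and DKK1 at chr10:52314031-52314280 (plus strand).
FZD1: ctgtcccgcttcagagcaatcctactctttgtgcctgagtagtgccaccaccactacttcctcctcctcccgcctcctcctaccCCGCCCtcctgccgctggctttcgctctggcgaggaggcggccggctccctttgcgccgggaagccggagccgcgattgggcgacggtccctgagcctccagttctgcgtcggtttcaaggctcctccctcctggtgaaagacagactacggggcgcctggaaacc
LGR4: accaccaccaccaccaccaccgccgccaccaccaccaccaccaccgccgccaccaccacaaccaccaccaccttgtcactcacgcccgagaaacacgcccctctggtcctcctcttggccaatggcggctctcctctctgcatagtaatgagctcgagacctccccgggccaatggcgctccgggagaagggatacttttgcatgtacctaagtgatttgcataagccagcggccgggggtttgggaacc
AXIN1: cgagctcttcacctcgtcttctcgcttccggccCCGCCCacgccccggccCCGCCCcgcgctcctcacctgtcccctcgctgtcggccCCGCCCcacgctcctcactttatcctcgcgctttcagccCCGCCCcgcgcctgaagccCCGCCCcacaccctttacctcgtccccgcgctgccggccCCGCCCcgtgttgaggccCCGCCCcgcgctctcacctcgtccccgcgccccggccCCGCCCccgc
DKK1: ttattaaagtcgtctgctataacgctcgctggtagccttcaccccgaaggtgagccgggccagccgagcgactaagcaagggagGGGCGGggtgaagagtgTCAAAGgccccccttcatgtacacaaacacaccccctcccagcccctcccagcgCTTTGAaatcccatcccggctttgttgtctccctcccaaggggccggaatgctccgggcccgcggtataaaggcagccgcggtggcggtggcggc
In the FZD1 window the GC box begins 166 bases before the start, on the minus strand of the gene, and in the DKK1 window the TCF/LEF cores begin 149 and 95 bases before it. Bases soon after the FZD1 start were also found near the beginning of a GENCODE transcript of that gene. Those soon after the starts used for LGR4, AXIN1 and DKK1 were not. The DKK1 distances therefore refer to the RefSeq start alone.

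The rest of the pathway was read from a list of 133 genes outside the member rule, of which 125 had a row and 99 were tested. Of these 20 were higher (20.2%, the same as the 20.2% of all tested genes) and 33 lower (33.3%, against 20.7%), with a median log2 fold change of -0.10. In Wnt secretion, PORCN, the acyltransferase that lipid-modifies Wnt proteins, averaged 73.9 ± 5.61 CPM in EV libraries and 53.6 ± 2.39 CPM in control libraries (SD, n = 3 each) and was higher (0.46 ± 0.07, adjusted p = 2.68e-05). NOTUM, which removes that lipid, averaged 1.36 ± 0.305 CPM in EV libraries and 2.24 ± 0.303 CPM in control libraries and was lower (-0.69 ± 0.22, adjusted p = 0.0164). WLS, the carrier of Wnt proteins to the surface, was at 18.3 ± 0.979 CPM in EV libraries and 21.3 ± 1.88 CPM in control libraries (adjusted p = 0.0531).

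Among the co-receptor and R-spondin genes, 2 of 6 tested were higher (33.3%, against 20.2% of all tested genes) and 1 lower (16.7%, against 20.7%). KREMEN2, a DKK receptor, was at 12.9 ± 2.85 CPM in EV libraries and 8.11 ± 0.481 CPM in control libraries (0.68 ± 0.13), ATP6AP2, an adaptor between LRP6 and a proton pump, was at 0.19 ± 0.06 on the log2 scale, and CAPRIN2 was lower at -0.22 ± 0.06. LGR5 had 0 counts in all libraries, and LGR6 had 0, 0 and 2 counts in EV libraries and 7, 12 and 3 in control libraries, below the filter and with EV below control, the opposite order to LGR4. Of the 5 tested genes among other antagonists, TRABD2A, a protease that inactivates Wnt proteins, was lower (-0.21 ± 0.08, adjusted p = 0.0436).

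In the destruction complex 3 of 14 genes were higher (21.4%, against 20.2% of all tested genes) and 4 lower (28.6%, against 20.7%). CTNNB1, which encodes beta-catenin, was at 279 ± 8.04 CPM in EV libraries and 234 ± 11.7 CPM in control libraries (0.25 ± 0.06, adjusted p = 0.00199), and AMER1, a membrane adaptor of the complex, was at 19.1 ± 0.872 CPM in EV libraries and 13.2 ± 1.61 CPM in control libraries (0.53 ± 0.10). GSK3B was at 89.3 ± 4.42 CPM in EV libraries and 113 ± 4.09 CPM in control libraries (-0.33 ± 0.06, adjusted p = 0.00023). Also lower were the kinase gene CSNK1A1 (-0.30 ± 0.05) and TNKS, a tankyrase that promotes AXIN turnover (-0.48 ± 0.08). APC was at 26.6 ± 1.32 CPM in EV libraries and 25.4 ± 3.18 CPM in control libraries and was not called (adjusted p = 0.599).

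Among the transducers 2 of 12 were higher (16.7%, against 20.2% of all tested genes) and 5 lower (41.7%, against 20.7%). DVL1, which encodes a Dishevelled protein that links Frizzled to the complex, was at 246 ± 10.7 CPM in EV libraries and 306 ± 1.70 CPM in control libraries (-0.32 ± 0.06, adjusted p = 0.000186), and DVL2 was lower too (-0.27 ± 0.06), while DVL3 was not called (-0.06 ± 0.06, adjusted p = 0.445). CSNK1E (-0.35 ± 0.06) and CSNK1G3 (-0.38 ± 0.07), kinases acting near the receptor, were lower. The Dishevelled-binding inhibitor gene CXXC5 was at 13.0 ± 0.745 CPM in EV libraries and 6.01 ± 1.18 CPM in control libraries (1.12 ± 0.13, adjusted p = 1.3e-06), and DACT3 was at 2.52 ± 0.377 CPM in EV libraries and 1.16 ± 0.277 CPM in control libraries (1.10 ± 0.22).

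Of 15 tested genes of the beta-catenin-independent and planar polarity branch, 5 were higher (33.3%, against 20.2% of all tested genes). Lower were 4 (26.7%, against 20.7%). PTK7, a pseudokinase co-receptor, was at 20.6 ± 2.15 CPM in EV libraries and 12.5 ± 1.13 CPM in control libraries (0.73 ± 0.10), and the kinase-like receptor gene RYK was higher at 0.19 ± 0.06 (adjusted p = 0.0106). The CELSR cadherin genes split, with CELSR2 higher (0.86 ± 0.10) and CELSR1 (-0.38 ± 0.07) and CELSR3 (-0.58 ± 0.11) lower. ROR1, a WNT5A receptor, was at 0.453 ± 0.105 CPM in EV libraries and 0.645 ± 0.0739 CPM in control libraries (adjusted p = 0.254), and ROR2 had at most 10 counts in any library.

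Nuclear partners were higher in 1 of 24 (4.17%, against 20.2% of all tested genes) and lower in 9 (37.5%, against 20.7%), with no test of the list. TLE1, a corepressor of TCF factors, was at 89.6 ± 3.91 CPM in EV libraries and 120 ± 2.10 CPM in control libraries (-0.42 ± 0.06, adjusted p = 1.34e-05), TBL1X was lower (-0.51 ± 0.08) and CTBP2 higher (0.16 ± 0.06). Genes known as transcriptional targets of the pathway in other settings were higher in 6 of 18 (33.3%, against 20.2% of all tested genes). Lower were 8 (44.4%, against 20.7%). CCND1, which encodes cyclin D1, was at 221 ± 11.4 CPM in EV libraries and 167 ± 1.60 CPM in control libraries (0.41 ± 0.06, adjusted p = 1.71e-05), whereas MYC was lower (-0.52 ± 0.06). L1CAM (1.58 ± 0.17) and ID2 (1.39 ± 0.14) had the lowest adjusted p among the higher targets, and JUN (-0.82 ± 0.06) and FOSL1 (-0.68 ± 0.06) among the lower ones. Many of these targets also answer to other pathways.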

How the data were processed

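Poly(A) RNA of 3 libraries labelled EV-treated and 3 labelled untreated was sequenced. The authors deposited raw counts per gene, and their own comparison with log2 group means and log2 fold changes, q-values and p-values, both per the file headers. Per the submitters' processing notes TopHat, RSEM and hg19 were used; the sources used here name no versions or annotation. Per the labels' protocols the kit keeps strand.

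Assembled loci without a gene name (0.099% to 0.134% of a library's counts) were left out. Genes passing filterByExpr were tested with edgeR 4.0.16 (quasi-likelihood, TMM factors) in R 4.3.3, two-sided. SE is the log2 coefficient over the square root of F. CPM uses TMM factors. Nothing in the labels shows that replicates were separate cultures, so the p-values reflect only library-to-library spread, which may be technical. Floors (3 counts) cover counting error only. The test was checked on simulated counts with 50 changed genes per fold size. In a single simulated draw it called 42% of 1.25-fold, 64% of 1.5-fold, 94% of 2-fold and 98% of 4-fold changes, and 14 unchanged genes. Far fewer of the 14670 genes changed there than the 6001 called in the real data. The adjustment was therefore stricter, and these shares do not carry over to the real test. A gene not called may still differ by a small amount. Exon lengths and overlaps came from GENCODE v29 (GRCh38). Alternatives were other scalings, filters and thresholds, DESeq2 1.42.0, limma-voom (limma 3.58.1), each library left out and a replicate block. Members, gene lists and tests were chosen with earlier results of these data known. Named genes were all members. Of the other pathway genes, 14 were always named, with the 2 called genes of lowest adjusted p per role and direction at a mean of at least 1 CPM.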

Additional observations from a re-analysis of the deposited data

How the results depend on the processing

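Across 15 alternative settings, 8 to 9 members were higher and 2 to 4 lower, against 8 and 3 as reported. Leaving out 1 library at a time gave the same ranges. Of the 11 called members, 10 kept their call and direction in all 14 refits, and WNT3, at -0.51 as reported, was no longer called without EV replicate 2 (-0.50), without EV replicate 3 (-0.40) and without control replicate 2 (-0.44), with 1 library fewer in each. NKD1 and TCF7 gained a call in 1 and 3 refits. Signs turned for uncalled members: without EV replicate 2 for WNT11 (-0.04), WNT2B (0.06), WNT4 (0.04) and FZD6 (-0.01); without control replicate 2 for WNT2B (0.01) and WNT4 (0.13); for WNT4 also with limma-voom (0.08), without control replicate 3 (0.18) and with the replicate block (0.01); for TCF7L2 without EV replicate 1 (0.01); and for FZD8 with upper-quartile factors (-0.01), without EV replicate 3 (-0.02), and, at 0 after rounding, with the 1 CPM filter and without control replicate 3. Over the refits without 1 library, values ranged from -0.04 to 0.65 for WNT11, -0.16 to 0.06 for WNT2B, -0.34 to 0.18 for WNT4, -0.01 to 0.05 for FZD6 and -0.12 to 0.01 for TCF7L2. Uncalled members that kept their sign but moved by over 1.5 times ranged from 0.11 to 0.47 (WNT9A), -0.69 to -0.21 (WNT10A), 0.17 to 0.55 (WNT10B), 0.08 to 0.21 (FZD5), -0.18 to -0.09 (FZD7), 0.03 to 0.15 (DKK1), 0.22 to 0.50 (NKD1) and -0.42 to -0.11 (TCF7). The cause was not tested.

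The labels number the replicates 1 to 3 in both groups, but same-numbered libraries did not deviate together (correlations -0.021, -0.009 and -0.011). Nothing here shows that they were paired, though a small shared effect could be missed. With the replicate block 5743 genes were called, against 6001, with 8 members higher and 4 lower (TCF7 at an adjusted p = 0.0423 by edgeR).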
